A study of Homo sapiens with 24 samples.

Results

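Imprinted genes are transcribed mainly from the copy inherited from 1 parent. The set described here was 10 such genes chosen by name: H19, IGF2, CDKN1C, PEG3, PEG10, MEST, SNRPN, PLAGL1, DLK1 and MEG3. Of these, 9 had a row among the 28301 features of the authors' gene table, and PEG3 was not analysed here. Values were compared over 8 groups of 3 RNA sequencing libraries from H9, an established human embryonic stem cell line. The engineered cells carried Cry2, a light-sensing plant protein, fused to the intracellular part of the Wnt co-receptor LRP6, with mCherry and a puromycin resistance gene. The question is what light-driven Wnt signalling does to engineered cells and to their wild-type neighbours.

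Monoculture groups were engineered cells under light (Cry2 light), engineered cells in the dark (Cry2 dark), wild-type cells under light (wt light) and wild-type cells in the dark (wt dark). Co-culture groups were sorted from mixed cultures: mCherry-positive engineered cells under light or in the dark (mCherry light, mCherry dark) and GFP-positive wild-type cells under light or in the dark (GFP light, GFP dark). Light was 0.8 µW/mm² for 48 h, and each replicate pooled wells of one culture. Cells called wild type carried eGFP and a neomycin resistance gene, so no group was free of a transgene. Whether the engineered cells were 1 clone is not stated by the labels. Reads of the Cry2 fusion averaged 35763 in Cry2 dark and 37014 in mCherry dark as normalised read counts, against 382 in wt dark and 370 in GFP dark, which goes with the titles; in monoculture the genotype tags name the opposite genotype.

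Libraries held 28237578 to 56639833 reads assigned to genes. Both dark monoculture groups were shallower than the illuminated ones (28237578 to 34291124 against 45763662 to 54707558 reads), so in monoculture depth and light cannot be told apart. In monoculture the libraries wt dark replicate 1 (33.73% GC) and Cry2 dark replicate 3 (RNA integrity number 7.6) stood apart in quality. Within groups, libraries were compared by pairs over many genes (chi-square per degree of freedom). Pairs with wt light replicate 2 gave 56.78 and 46.69, against 5.66 without it, and it stood apart in PEG10 and SNRPN. In co-culture, pairs with mCherry light a gave 68.92 and 78.63, against 14.91 without it. Pairs with GFP light a gave 21.0 and 27.02, against 7.47 without it. Summed pluripotency markers (POU5F1, NANOG, SOX2, LIN28A) lay between 169740 and 206562 in the 6 groups other than engineered cells under light, where they lay between 57130 and 77958. Summed mesoderm markers (TBXT, MIXL1, MESP1, TBX6) reached 103084 to 120050 there, against at most 443 in any other library, so comparisons of illuminated engineered cells are between different cell states. The pluripotency sum is set by POU5F1 and LIN28A, which fell least. Their log2 changes were -2.03 and -1.02 in Cry2 light against dark, and -1.83 and -0.93 in mCherry light against dark. NANOG and SOX2 changed by -6.12 and -7.86 in Cry2, and by -7.06 and -7.41 in mCherry. In bulk RNA, fewer cells of a type and less RNA per cell cannot be told apart.

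The set spans several imprinted domains. On chromosome 11, H19 is a maternally expressed non-coding RNA and IGF2 the paternally expressed growth factor beside it; a methylated control region between them, bound by CTCF on the unmethylated maternal copy, sets which of the pair uses their shared enhancers. CDKN1C, further along chromosome 11, encodes the maternally expressed cell cycle inhibitor p57. The paternally expressed members are PEG10 (a retrotransposon-derived gene needed for the placenta in mice), MEST (an enzyme-like protein of mesoderm and fat), SNRPN (a splicing protein in the Prader-Willi region), PLAGL1 (a zinc-finger transcription factor) and DLK1 (a membrane relative of Notch ligands), and MEG3 is the maternally expressed non-coding RNA beside DLK1. Some imprints are known to drift in cultured stem cells. Read counts of this kind do not separate the parental copies, so every value below is the sum of both.

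On GRCh38 (GENCODE 29, matched by Ensembl identifier), H19 lies at chr11:1995176-2001470, IGF2 at chr11:2129112-2149603 and CDKN1C at chr11:2883213-2885773, all on the minus strand. PEG10 lies at chr7:94656325-94669695, MEST at chr7:130486171-130506465, SNRPN at chr15:24823637-24978723, DLK1 at chr14:100725705-100738224 and MEG3 at chr14:100779410-100861031 on the plus strand, and PLAGL1 at chr6:143940300-144064599 on the minus strand. Counts are of reads over annotated exons. IGF2 shares 5144 of its 6979 exon bases with a second protein-coding IGF2 record and 1460 with the read-through gene INS-IGF2, so most of its length is uncertain, which bears on its level and on any ratio to it. SNRPN shares 814 with SNURF and 541 with AC124312.1, PLAGL1 shares 289 with HYMAI, and MEST shares 602 with AC007938.2 and 484 with MESTIT1 on the opposite strand. Whether counting used the strand is not stated by the labels, and reads in those stretches are uncertain.

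Promoter windows of RefSeq (GRCh38.p14, 250 bases before to 50 after a start) were available for 5 of the 10 genes, in 18 windows. The 4 printed here belong to H19, the gene that differed between the cell lines in the dark, and to MEST, PLAGL1 and SNRPN, which changed under light; where a gene has several windows, the one with the most CG dinucleotides is shown. They run 5′ to 3′ on the gene's strand, and capitals mark TGCCGC or its complement GCGGCA, the hexamer that the imprint-protecting factor ZFP57 binds when it is methylated. The windows are H19 chr11:2001217-2001516, MEST chr7:130491835-130492134, PLAGL1 chr6:144008210-144008509 and SNRPN chr15:24954737-24955036.
H19: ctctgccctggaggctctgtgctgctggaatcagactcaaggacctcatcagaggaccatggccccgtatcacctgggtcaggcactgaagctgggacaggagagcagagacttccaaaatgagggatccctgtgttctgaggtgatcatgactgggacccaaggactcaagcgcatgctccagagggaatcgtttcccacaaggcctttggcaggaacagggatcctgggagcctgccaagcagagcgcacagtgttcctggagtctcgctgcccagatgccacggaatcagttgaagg
MEST: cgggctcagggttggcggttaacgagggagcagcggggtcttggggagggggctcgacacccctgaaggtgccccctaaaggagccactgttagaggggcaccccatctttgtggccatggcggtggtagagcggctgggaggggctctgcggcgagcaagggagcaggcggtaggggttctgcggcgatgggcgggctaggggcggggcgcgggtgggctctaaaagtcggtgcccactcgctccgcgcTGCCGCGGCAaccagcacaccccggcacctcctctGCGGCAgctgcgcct
PLAGL1: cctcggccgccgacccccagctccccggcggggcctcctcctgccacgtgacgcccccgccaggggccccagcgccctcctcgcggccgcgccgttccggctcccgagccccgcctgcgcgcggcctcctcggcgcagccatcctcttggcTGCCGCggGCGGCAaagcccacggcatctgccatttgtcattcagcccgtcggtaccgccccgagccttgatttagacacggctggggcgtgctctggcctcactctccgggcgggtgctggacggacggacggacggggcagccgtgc
SNRPN: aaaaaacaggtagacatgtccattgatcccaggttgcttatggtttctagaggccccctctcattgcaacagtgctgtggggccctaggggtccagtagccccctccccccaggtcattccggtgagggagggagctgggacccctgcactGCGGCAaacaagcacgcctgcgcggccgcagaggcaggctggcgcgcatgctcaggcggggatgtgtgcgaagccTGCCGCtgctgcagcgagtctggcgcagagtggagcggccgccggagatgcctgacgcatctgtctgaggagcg
The hexamer occurred in either orientation in 10 of the 18 windows, which overlap one another within genes, and in 16.7% of 35116 windows of all genes. The MEST window held 3 matches, of which a pair overlap, the PLAGL1 and SNRPN windows 2 each and the H19 window none. CG dinucleotides numbered 39 in the PLAGL1 window, 25 in MEST, 18 in SNRPN and 6 in H19, beside a median of 14 over all windows. Printed windows were picked for the most CG, and the hexamer contains CG. Their CG counts and matches therefore cannot show that these genes differ from others. The windows not printed held 2 to 31 CG in PLAGL1, 13 to 22 in MEST and 2 to 11 in SNRPN. The Wnt-effector words CTTTGAT and CTTTGAA, searched on both strands, occurred in 1 of the 18 windows, a MEST window that is not printed, and in 6.86% of all windows. A match is only a match of letters.

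H19 was lower in engineered than in wild-type cells in the dark in both cultures, and it was the only imprinted gene of the set that passed the test in both. In monoculture its normalised read count was 48.3, 49.5 and 56.6 in Cry2 dark, against 96.3, 88.4 and 125 in wt dark. In co-culture it was 59.1, 36.3 and 43.5 in mCherry dark, against 108, 110 and 86.6 in GFP dark. Every engineered library lay below every wild-type library in each culture. H19 averaged 51.4 ± 4.46 in Cry2 dark and 103 ± 19.5 in wt dark (SD, n = 3 each), a log2 change of -0.98 ± 0.24 (SE; adjusted p = 0.037, limma-trend with Benjamini-Hochberg adjustment over 19444 genes). It averaged 46.3 ± 11.6 in mCherry dark and 101 ± 12.8 in GFP dark (SD, n = 3 each), a log2 change of -1.13 ± 0.21 (SE; adjusted p = 0.014 by limma over 19436 genes). These are 0.498 and 0.457 times the wild-type means.

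These calls sat near the threshold. Leaving out any 1 of the 6 dark monoculture libraries moved the adjusted p of H19 to between 0.062 and 0.16, with the log2 change between -1.08 and -0.83, and without wt dark replicate 1 and Cry2 dark replicate 3 together it was -1.09 with an adjusted p of 0.14. In co-culture the call was lost without mCherry dark b (adjusted p = 0.099), mCherry dark c (0.081), GFP dark a (0.093) or GFP dark b (0.10), with log2 changes between -1.11 and -0.98. The reads behind it were few: 110 over the 3 Cry2 dark libraries and 242 over the 3 wt dark libraries.

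In the dark monocultures 1 of the 9 genes tested passed, against 3.6% of all genes tested, and in the dark co-cultures 2 of 9 passed, against 0.797%. The second was PEG10, whose normalised read count was 7975, 7649 and 7535 in mCherry dark, against 11125, 10349 and 9045 in GFP dark. All mCherry dark values lay below all GFP dark values. PEG10 changed by -0.39 ± 0.08 on the log2 scale in co-culture (SE; adjusted p = 0.036 by limma), a call that was kept only without GFP dark c (0.017) when 1 library was left out; without mCherry dark a, b or c it was 0.099, 0.18 or 0.19, and without GFP dark a or b 0.23 or 0.20. In monoculture PEG10 was 8023, 7698 and 7459 in Cry2 dark, against 8682, 9318 and 9456 in wt dark, again without overlap. That difference of -0.24 ± 0.13 did not pass (adjusted p = 0.37 by limma). The dark difference in co-culture minus that in monoculture was -0.15 ± 0.32 for H19 and -0.15 ± 0.16 for PEG10, and none of the 9 genes differed between cultures (adjusted p = 1 for each by limma; 0.00492% of all genes passed).

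IGF2, the neighbour of H19, lay the other way in the dark without passing the test. Its normalised read count was 106, 116 and 101 in Cry2 dark, against 89.4, 97.1 and 72 in wt dark. In co-culture it was 105, 82.8 and 109 in mCherry dark, against 71.7, 70 and 44.4 in GFP dark. The groups did not overlap in either culture, yet the log2 differences of 0.33 ± 0.23 and 0.69 ± 0.29 had adjusted p-values of 0.52 and 0.77 (limma). Groups without overlap were common: they were found for 5 of the 9 genes in monoculture, where 27.4% of all genes had them, and for 5 of 9 in co-culture, where 16.5% did.

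**Figure D1:**
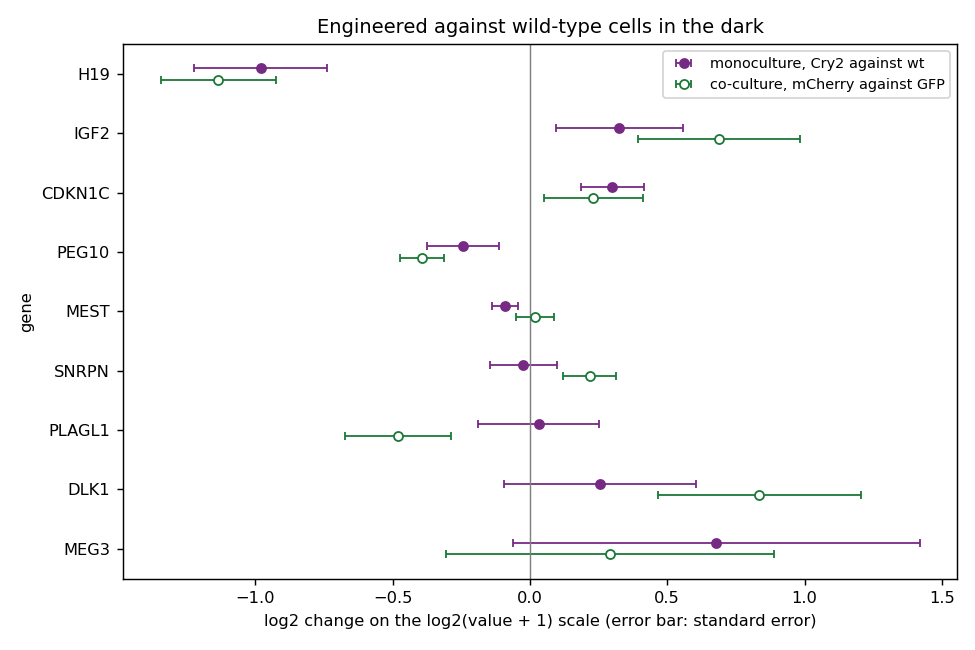
Log2 change of each imprinted gene in engineered against wild-type cells in the dark (horizontal axis, log2(value + 1) scale), in monoculture (filled, Cry2 against wt) and co-culture (open, mCherry against GFP), with standard errors from fits to 12 libraries each. H19 lies at -0.98 and -1.13 and passed the test in both cultures. PEG10 lies at -0.24 and -0.39 and passed in co-culture only. None of the other 7 genes passed in either culture.

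The other members did not pass between the cell lines in the dark. CDKN1C averaged 472 ± 43.9 in Cry2 dark and 383 ± 26.8 in wt dark (SD, n = 3 each), a log2 difference of 0.30 ± 0.11 that did not pass (adjusted p = 0.18 by limma), and 0.23 ± 0.18 in co-culture (adjusted p = 1). MEST differed by -0.09 ± 0.05 in monoculture and 0.02 ± 0.07 in co-culture, the narrowest errors of the set. SNRPN differed by -0.02 ± 0.12 and 0.22 ± 0.10, PLAGL1 by 0.03 ± 0.22 and -0.48 ± 0.19, and DLK1 by 0.25 ± 0.35 and 0.83 ± 0.37, none of them past the threshold. MEG3 was at or near 0 reads in the dark in both cell lines: 8.48 in Cry2 dark replicate 2 was the highest of the 12 dark values, from 6 reads. It passed the filter on low values only through the illuminated engineered libraries. Over the 9 genes the median log2 difference was 0.03 in monoculture and 0.22 in co-culture, beside 0.01 and 0.00 over all genes tested.

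The ratio of H19 to IGF2 reads within a library needs no scaling between libraries. In the dark it was 0.457, 0.427 and 0.559 in Cry2, against 1.08, 0.91 and 1.74 in wt. In the sorted cells it was 0.561, 0.438 and 0.399 in mCherry dark, against 1.51, 1.56 and 1.95 in GFP dark. Under light it ran from 0.532 to 0.809 in Cry2, against 1.32 to 4.11 in wt, and from 0.556 to 0.835 in mCherry, against 2.62 to 5.71 in GFP. Engineered libraries all held fewer H19 than IGF2 reads, and of the 12 wild-type libraries 11 held more H19, wt dark replicate 2 being the exception. The ratio is a description of these libraries, given without a test.

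**Figure D2:**
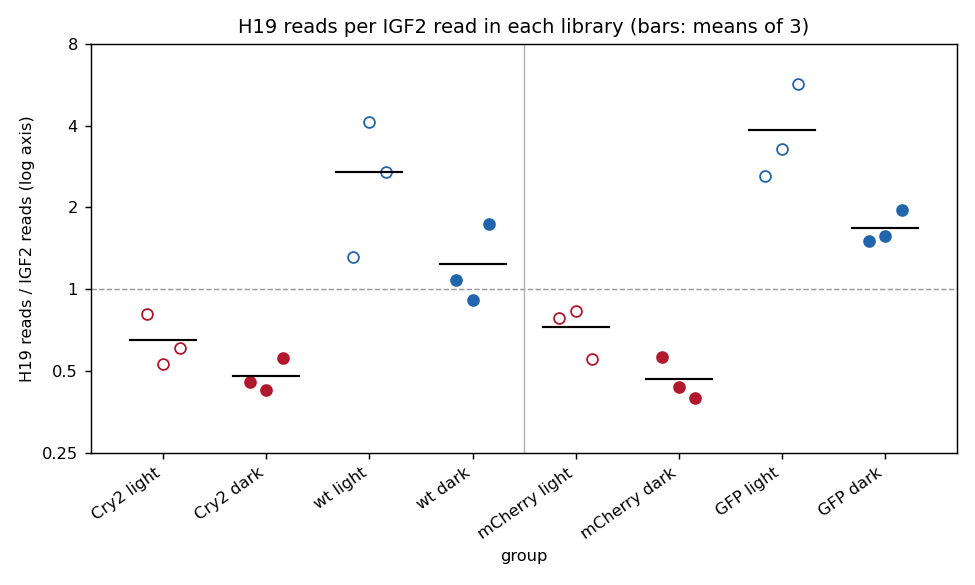
H19 reads per IGF2 read in each of the 24 libraries (vertical log axis) by group; points are libraries, bars are means of 3, open symbols are light and filled symbols dark, red is engineered and blue wild type. Engineered libraries lie between 0.399 and 0.835, and wild-type libraries between 0.91 and 5.71.

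Under light, a comparison added after the dark values were seen, the opposite differences of the pair both passed. H19 was 84.1, 67.3 and 72.8 in Cry2 light, against 112, 208 and 136 in wt light, a log2 change of -0.97 ± 0.24 (adjusted p = 0.0027 by limma). IGF2 was 104, 126 and 120 in Cry2 light, against 85, 50.4 and 50.3 in wt light, a change of 0.94 ± 0.23 (adjusted p = 0.0023 by limma). The engineered and wild-type libraries did not overlap for either gene. In co-culture H19 changed by -1.09 ± 0.21 (adjusted p = 0.00042) and IGF2 by 1.24 ± 0.29 (adjusted p = 0.0023, both by limma) in mCherry light against GFP light. IGF2 there was 120, 97.8 and 149 in mCherry light, against 67.7, 58.4 and 32.3 in GFP light, the lowest from the shallow library c with 24 reads. All 8 genes other than MEG3 passed in both of these comparisons, as did 60.9% of all genes in monoculture and 54.3% in co-culture. The PEG10 call in Cry2 light against wt light, a change of -0.38 ± 0.13 between overlapping groups, was lost without Cry2 light replicate 3 (adjusted p = 0.051 by limma), wt light replicate 1 (0.093) or wt light replicate 3 (0.097).

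H19 rose under light in both sorted populations of the co-culture, and the size of the light effect did not pass a test of difference between the cell lines. H19 was 93.8, 81.7 and 82.8 in mCherry light, against 59.1, 36.3 and 43.5 in mCherry dark, with a log2 change of 0.91 ± 0.21 (adjusted p = 0.0018 by limma). It was 177, 192 and 185 in GFP light, against 108, 110 and 86.6 in GFP dark, a change of 0.87 ± 0.21 (adjusted p = 0.028 by limma). Light and dark libraries did not overlap in these co-culture populations. The GFP call was lost when any 1 of its 6 libraries was left out (adjusted p = 0.061 to 0.14; 0.11 without GFP light b). In monoculture the differences of 0.53 ± 0.24 in Cry2 and 0.52 ± 0.24 in wt did not pass (adjusted p = 0.075 and 0.38 by limma). The light effect in engineered minus that in wild-type cells was 0.01 ± 0.34 in monoculture and 0.04 ± 0.30 in co-culture. IGF2 did not pass under light in any population, with log2 differences of 0.11 ± 0.23 in Cry2, 0.29 ± 0.29 in mCherry, -0.50 ± 0.23 in wt and -0.26 ± 0.29 in GFP.

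PEG10 moved in opposite directions in the 2 illuminated co-culture populations. It was 17981, 18616 and 19090 in GFP light, against 11125, 10349 and 9045 in GFP dark. It was 6546, 5847 and 6339 in mCherry light, against 7975, 7649 and 7535 in mCherry dark. Neither pair of groups overlapped, and every GFP light library was above every other library of the series. PEG10 rose in GFP cells by 0.87 ± 0.08 on the log2 scale (adjusted p = 1.2e-05) and fell in mCherry cells by 0.31 (SE 0.08; adjusted p = 0.0048), and the light effect in mCherry minus that in GFP was -1.18 ± 0.11 (adjusted p = 8.9e-07, all by limma). With H19 it made 2 of 9 genes past the threshold in GFP light against dark, where 4.6% of all genes passed.

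In monoculture wild-type cells light gave no such rise. PEG10 was 9005, 5625 and 8958 in wt light, against 8682, 9318 and 9456 in wt dark, a log2 difference of -0.25 ± 0.13 (adjusted p = 0.42 by limma). The low value is that of wt light replicate 2. The light effect in GFP minus that in wt, added after these values were seen, was 1.12 ± 0.16 (adjusted p = 0.00015 by limma) and stayed between 0.90 and 1.24 with any 1 library left out; PEG10 was the only 1 of the 9 genes to pass, with 2.3% of all genes. In wt light against dark none of the 9 genes passed, and 0.072% of all genes did. In Cry2 light PEG10 was 6021, 6148 and 5519, against 8023, 7698 and 7459 in Cry2 dark, a change of -0.39 ± 0.13 (adjusted p = 0.018 by limma; 0.058 without Cry2 dark replicate 1). Of the amnion and trophoblast markers, GATA3 averaged 62.5 in GFP light, against 9.26 in GFP dark (adjusted p = 0.0082 by limma), and TFAP2A 17.8, against 0 in all 3 GFP dark libraries. KRT7 moved the other way, at 276 in GFP light, against 449 in GFP dark (adjusted p = 0.042 by limma), and it set the sum of the 3, at 335 to 398 in GFP light, against 426 to 507 in GFP dark. GATA3 was higher under light in engineered cells too. It averaged 140 in Cry2 light, against 7.06 in Cry2 dark, and 106 in mCherry light, against 7.32 in mCherry dark. Between mCherry light and GFP light it did not pass (adjusted p = 0.23 by limma). KRT7 was low in both illuminated engineered groups (9.56 in Cry2 light, 8.67 in mCherry light), and TFAP2A averaged 0.794 in mCherry light. Summed mesoderm markers were 408 to 443 in GFP light, against 198 to 242 in GFP dark. The part of these markers in the PEG10 change was not tested.

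**Figure D3:**
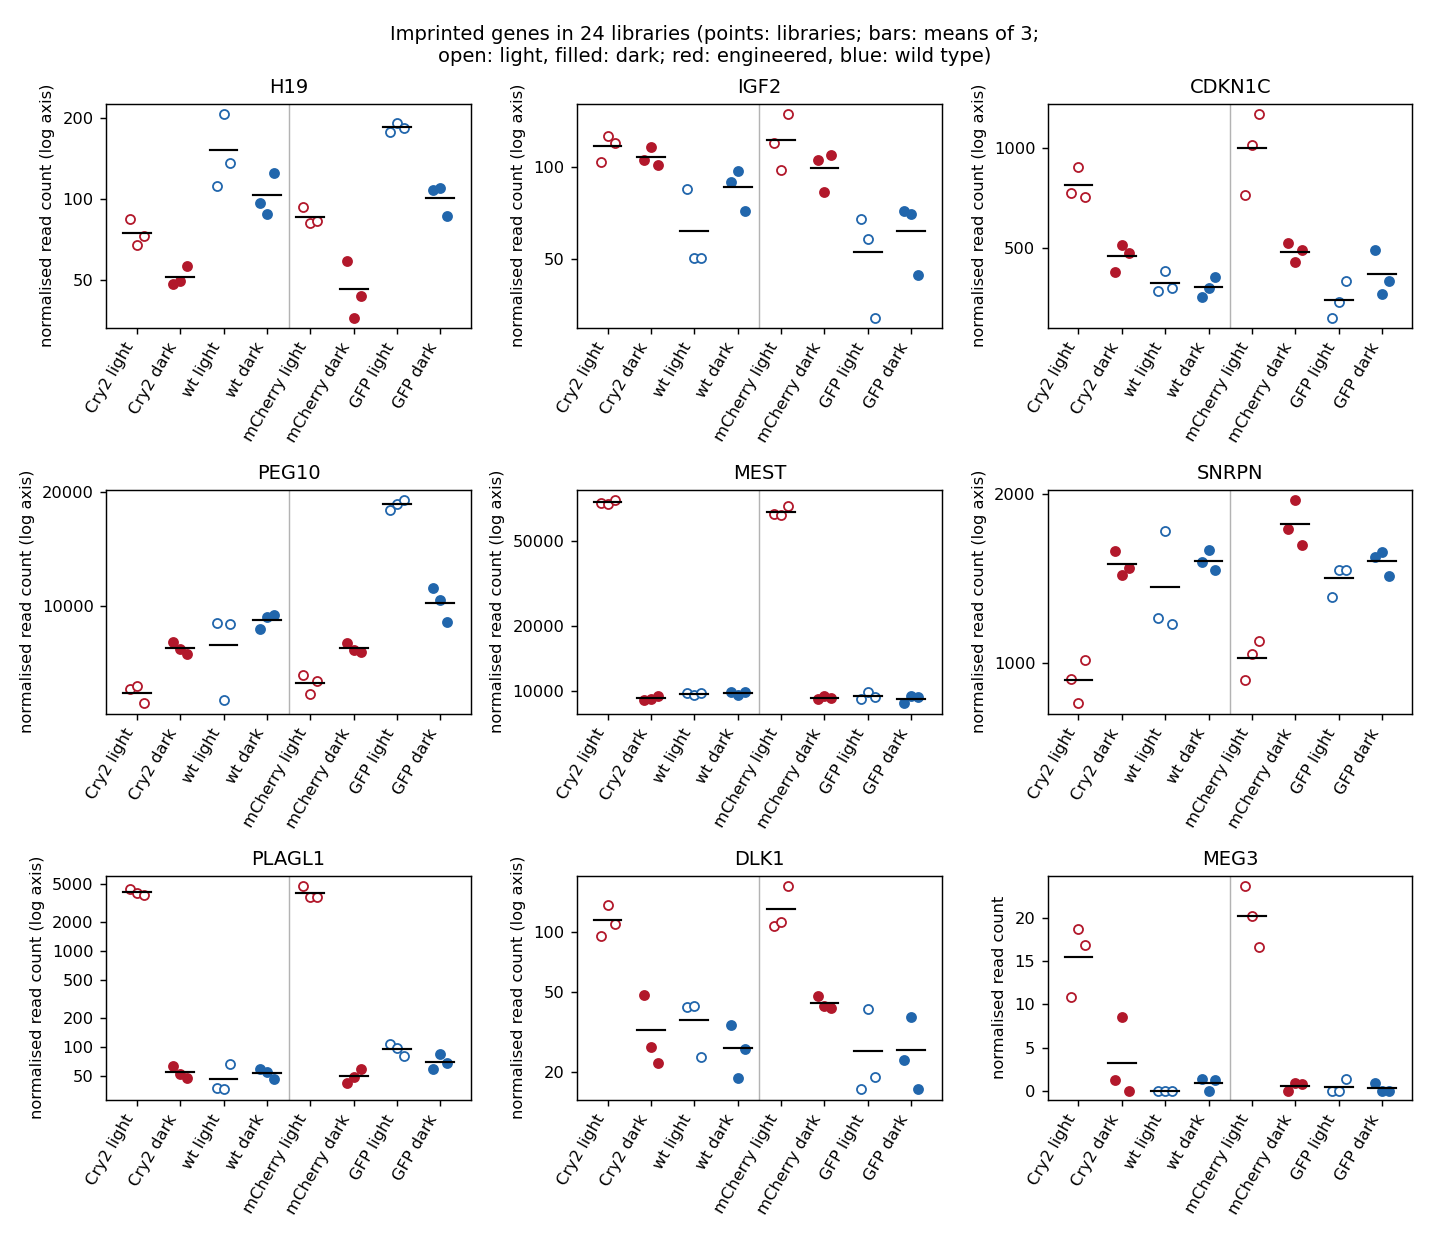
Normalised read count of the 9 imprinted genes in each of the 24 libraries by group, on log axes except for MEG3 (linear axis); points are libraries and bars means of 3, open for light, filled for dark, red for engineered and blue for wild type. MEST, PLAGL1, DLK1 and MEG3 stand high in engineered cells under light, and PEG10 stands highest in GFP light, at 17981 to 19090.

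In engineered cells light changed most of the set, as it did most genes: of the 8 members other than MEG3, 6 passed in Cry2 light against dark, where 58.4% of all genes passed, and 7 in mCherry light against dark, where 55.9% did. Light and dark libraries did not overlap for 7 of the 8 in Cry2, where 65.7% of all genes did not, and for 7 of the 8 in mCherry, where 58.4% did not. MEG3 is left out of these counts because it reached the minimum level in the illuminated engineered libraries alone. PLAGL1 had the largest rise. It was 4451, 4069 and 3855 in Cry2 light, against 64, 52.3 and 47.6 in Cry2 dark, a 75.5-fold difference of means and a log2 change of 6.22 ± 0.22 (adjusted p = 2.2e-12 by limma). In mCherry light it was 4796, 3628 and 3686, against 41.9, 48.4 and 59.3 in mCherry dark, an 80.9-fold difference. All light values exceeded all dark values by a wide margin. HYMAI, the non-coding RNA that overlaps PLAGL1 on the same strand, held 2.43 to 9.05 normalised reads in Cry2 light and 4.38 to 17.8 in mCherry light, against at most 3.72 in any dark engineered library, and was under the filter.

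MEST, already the most abundant member per length, rose as well. It was 75111, 74240 and 78021 in Cry2 light, against 9031, 9211 and 9416 in Cry2 dark, an 8.22-fold difference of means and a log2 change of 3.04 ± 0.05 (adjusted p = 8.0e-16 by limma). In mCherry light it was 67152, 66317 and 72846, against 9174, 9497 and 9241 in mCherry dark, a 7.39-fold difference. Wild-type cells stayed between 8739 and 9934 in all 12 libraries, light or dark. The antisense gene MESTIT1 was at 1.51 to 28.4 normalised reads in the illuminated engineered libraries and 6.85 to 11.1 in the dark ones, and did not pass (adjusted p = 0.21 in Cry2 and 0.999 in mCherry by limma).

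DLK1 and MEG3, the neighbours on chromosome 14, were both higher under light, at low levels. DLK1 was 95.9, 137 and 110 in Cry2 light, against 48.3, 26.9 and 22.3 in Cry2 dark (log2 change 1.84 ± 0.35, adjusted p = 3.0e-04 by limma). In co-culture DLK1 was 107, 112 and 170 in mCherry light, against 47.9, 42.8 and 41.9 in mCherry dark (1.50 ± 0.37, adjusted p = 0.0029 by limma). MEG3 was 10.9, 18.6 and 16.9 in Cry2 light, against 1.31, 8.48 and 0 in Cry2 dark, and 23.7, 20.2 and 16.6 in mCherry light, against 0, 0.93 and 0.791 in mCherry dark. Light and dark libraries did not overlap for DLK1 in either culture. The MEG3 values are given without a test, since the gene passed the filter on low values only through these illuminated groups, and 54 reads over 3 libraries lay behind those of Cry2 light. RTL1 and MEG9 of the same domain were at 0 to 4.65 in every library.

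CDKN1C rose and SNRPN fell. CDKN1C was 731, 875 and 714 in Cry2 light, against 424, 510 and 482 in Cry2 dark (log2 change 0.71 ± 0.11, adjusted p = 7.4e-05 by limma), and 721, 1021 and 1266 in mCherry light, against 519, 454 and 494 in mCherry dark (1.00 ± 0.18, adjusted p = 2.4e-04). SNRPN was 934, 846 and 1012 in Cry2 light, against 1584, 1432 and 1479 in Cry2 dark (-0.69 ± 0.12, adjusted p = 1.5e-04 by limma), and 930, 1036 and 1093 in mCherry light, against 1731, 1955 and 1620 in mCherry dark (-0.79 ± 0.10, adjusted p = 4.8e-06). Light and dark libraries were apart for both genes in both cultures. In wild-type cells neither gene passed: CDKN1C differed by 0.04 ± 0.11 in wt and -0.25 ± 0.18 in GFP, and SNRPN by -0.18 ± 0.12 in wt and -0.10 ± 0.10 in GFP.

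**Figure D4:**
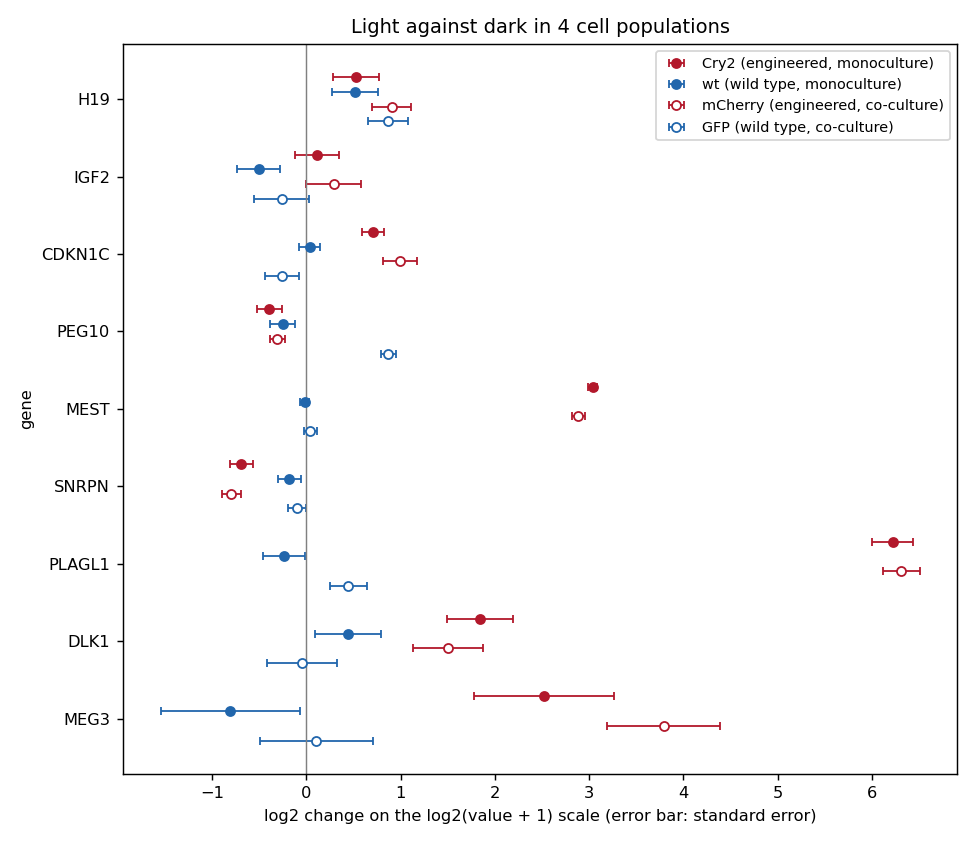
Log2 change of each imprinted gene under light against dark (horizontal axis, log2(value + 1) scale) with standard errors, in engineered cells (red) and wild-type cells (blue) of monoculture (filled) and co-culture (open). PLAGL1 lies at 6.22 and 6.31 and MEST at 3.04 and 2.88 in engineered cells, H19 lies above 0 in all 4 populations, and PEG10 lies at 0.87 in GFP cells and below 0 in the other 3. MEG3 values depend on the pseudocount.

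The difference of light effects between cell lines was tested directly. Of the 8 genes other than MEG3, 5 passed in monoculture (MEST, PLAGL1, SNRPN, CDKN1C and DLK1), as did 47.8% of all genes, and in co-culture these 5 and PEG10 passed, as did 40.5% of all genes. The light effect on MEST was larger in Cry2 than in wt by 3.05 ± 0.07 and that on PLAGL1 by 6.46 ± 0.31 on the log2 scale. For DLK1 the difference of 1.40 ± 0.49 in monoculture was lost without Cry2 light replicate 2, Cry2 dark replicate 2 or 3, wt light replicate 3 or wt dark replicate 1 (adjusted p = 0.060 to 0.075 by limma), and the 1.55 ± 0.52 in co-culture without any 1 of 6 libraries, mCherry light c, mCherry dark b or c, GFP light a or c, or GFP dark b (0.054 to 0.079). For SNRPN the -0.51 ± 0.17 in monoculture was lost without Cry2 light replicate 2, Cry2 dark replicate 1 or wt dark replicate 3 (0.051 to 0.056). Without wt dark replicate 1 and Cry2 dark replicate 3 together, the monoculture differences of both were lost as well, at 0.97 for DLK1 (adjusted p = 0.15 by limma) and -0.52 for SNRPN (adjusted p = 0.068). IGF2 passed without wt light replicate 1 (0.87, adjusted p = 0.030), and PEG10 without wt light replicate 2 (-0.36, adjusted p = 5.1e-04). Between the cultures, the light effect in mCherry minus that in Cry2 passed for none of the 9 genes and for 0.064% of all genes, in a comparison added after the values were seen.

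Levels of different genes were compared as normalised reads per kilobase of annotated exon. In wt dark the order was MEST (2047 ± 35.5), PEG10 (1368 ± 61.7), SNRPN (446 ± 18), CDKN1C (154 ± 10.8), H19 (35.7 ± 6.74), IGF2 (12.3 ± 1.84), PLAGL1 (6.10 ± 0.77), DLK1 (4.97 ± 1.48) and MEG3 (0.04 ± 0.03; SD, n = 3). PLAGL1 and DLK1 were within their spread of each other. In Cry2 dark the order was the same, with H19 at 17.8 ± 1.54 and IGF2 at 15.4 ± 1.08 nearly level. In Cry2 light MEST stood at 15809 ± 413 and PLAGL1, at 472 ± 34.5, passed CDKN1C (312 ± 35.7) and SNRPN (272 ± 24.4).

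Over the 24 libraries, the genes whose log2 values ran most like those of H19 were OPN3 (Pearson r = 0.935), SF3B4 (0.871) and HNRNPM (0.864). OPN3, an opsin, averaged 885 in Cry2 dark and 843 in mCherry dark, against 1010 in wt dark and 1101 in GFP dark. The correlations run over libraries that differ in genotype, light and depth, so these likenesses are given as a description only.

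A list of 34 other imprinted genes, of which 29 had a row, holds genes from the domains of the members and from elsewhere. In the dark monocultures 1 of the 24 that passed the filter was called, a share close to the 3.6% of all genes. It was SLC22A18, a transporter gene beside CDKN1C, at 320, 379 and 338 in Cry2 dark, against 237, 245 and 224 in wt dark (log2 change 0.55 ± 0.12, adjusted p = 0.024 by limma). In the dark co-cultures none of 23 was called, beside 0.797% of all genes, and SLC22A18 was 383, 290 and 333 in mCherry dark, against 323, 233 and 213 in GFP dark, with overlap. The median log2 difference of the list was 0.11 in monoculture and -0.02 in co-culture. KCNQ1OT1, the antisense RNA that silences the CDKN1C domain in cis, did not pass in any of the 4 light comparisons or in the dark.

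Under light in engineered cells, 14 of 24 passed in Cry2 (5 higher, 9 lower), beside 58.4% of all genes, and 12 of 23 in mCherry (4 higher, 8 lower), beside 55.9%; neither share stands apart from that of all genes. Genes of one domain changed in both directions. Around CDKN1C, the placental growth regulator PHLDA2 rose (log2 change 1.79 ± 0.23 in Cry2 and 1.45 ± 0.26 in mCherry) while the potassium channel gene KCNQ1 fell (-2.53 ± 0.23 and -1.90 ± 0.29). Around PEG10, TFPI2, a protease inhibitor, and PPP1R9A, neurabin, fell (-2.36 ± 0.14 and -2.11 ± 0.16 in Cry2). SGCE, which shares a start region with PEG10, rose in Cry2 (0.34 ± 0.09) and did not pass in mCherry (0.21 ± 0.10). The light effect in mCherry minus that in Cry2 passed for none of the 24 listed genes tested, SGCE included. Downstream of SNRPN, the host transcript SNHG14 fell (-0.88 ± 0.09 and -0.96 ± 0.12), while UBE3A, on the opposite strand, did not pass (-0.03 ± 0.09 and -0.18 ± 0.09).

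**Figure D5:**
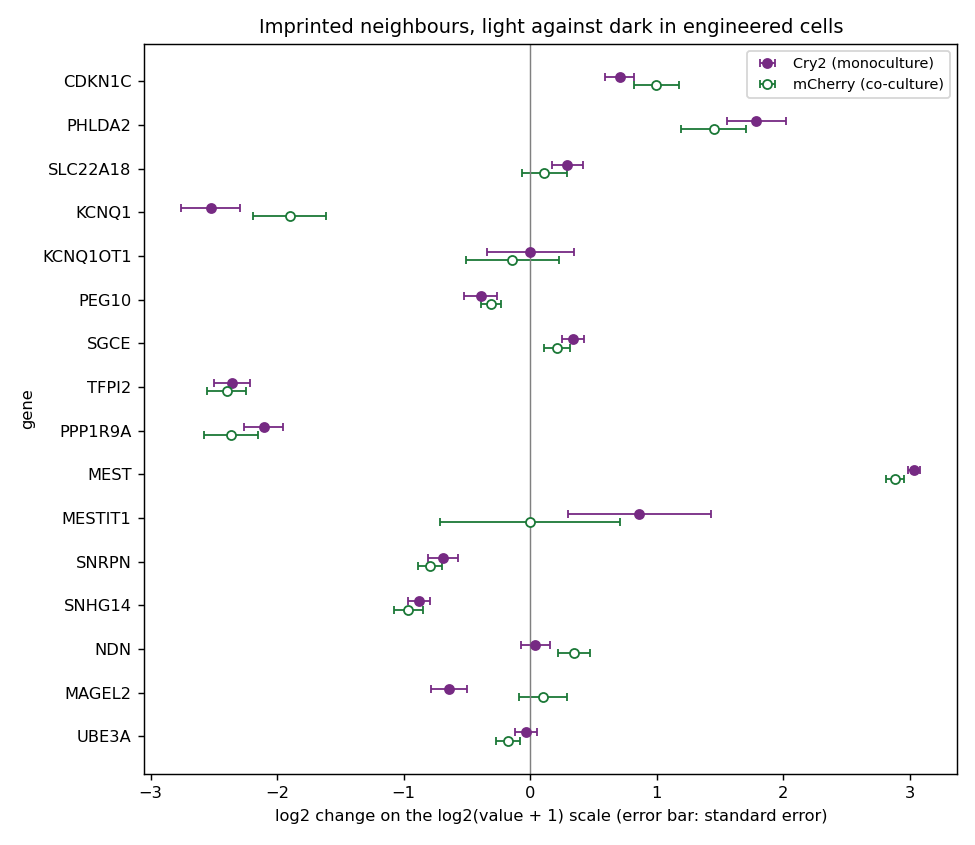
Log2 change under light against dark in engineered cells (horizontal axis, log2(value + 1) scale) with standard errors, in Cry2 (filled) and mCherry (open), for members and the listed imprinted genes of their domains, ordered by domain from CDKN1C to UBE3A. Within a domain genes lie on both sides of 0, such as PHLDA2 at 1.79 and KCNQ1 at -2.53 in Cry2.

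Few genes that keep imprints or belong to the pathway of IGF2 passed between the cell lines in the dark, as few of all genes did. Of 7 upkeep genes 1 passed in monoculture, beside 3.6% of all genes. It was UHRF1, which brings the maintenance methyltransferase to replicated DNA. UHRF1 was 1482, 1367 and 1487 in Cry2 dark, against 1990, 1967 and 2031 in wt dark (log2 change -0.47 ± 0.08, adjusted p = 0.0024 by limma). None of the 7 passed in co-culture, beside 0.797% of all genes. The dark difference of UHRF1 in co-culture minus that in monoculture, 0.36 ± 0.10, did not pass either. In co-culture UHRF1 was 1632, 1731 and 1694 in mCherry dark, against 1847, 1912 and 1703 in GFP dark. The co-culture groups overlapped. Of 13 IGF pathway genes with a row (receptors, binding proteins, IRS adaptors and IGF2 mRNA-binding proteins) none passed in the dark in either culture, beside those shares of all genes.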

How the data were processed

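Messenger RNA was sequenced from 24 libraries in 8 groups of 3. The authors' deposited table holds a signal per gene, which is a read count divided by 1 factor per library; whole reads were recovered from its steps for all values within 0.01. Submitters' processing notes name FastQC, cutadapt, Bowtie2, STAR, HTSeq and DESeq without versions, and GRCh38, while the header of the deposited sample table names hg19, so coordinates here come from the annotation and not from the files. The authors' deposited sample table also gives read counts per library, percent GC and the RNA integrity score, used here for monoculture only.

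Values were tested as log2(value + 1) with limma 3.58.1 (trend) in R 4.3.3, one fit per culture over its 4 groups and one over all 24 libraries for differences between cultures, keeping genes at 10 or more in at least 3 libraries. Of the 9 genes, MEG3 passed that filter only through illuminated engineered cells. Calls are at a Benjamini-Hochberg adjusted p under 0.05 over all genes tested. A fold change on the log2(value + 1) scale understates the change of low genes. Alternatives were pseudocounts of 0.5 and 10, no filter, a minimum of 50, TMM scaling, edgeR 4.0.16 and DESeq2 1.42.0 on the recovered reads, other sets of libraries, and each library left out. Fits were also run on simulated data with the same spread for every gene and no outlying library. The real libraries differ from that setting, so this run is no check of calls near the threshold. Python 3.11.15 with pandas 2.3.3 and matplotlib 3.10.9 made tables and figures.

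Monoculture samples were grouped by title. Co-culture columns were put in groups by the condition in the authors' sample table, which gives no replicate number, so these libraries are called a, b and c. No label says that replicates came from separate experiments, so p-values measure the spread between these samples, which may be technical; no pair of replicates was alike within counting noise. The members and gene lists were chosen with earlier results of these data known. Genes named outside the members are those of the lists that passed, their domain neighbours, and the 3 most correlated with H19.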

Additional observations from a re-analysis of the deposited data

Results flagged for a closer look

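Each value here is a light effect in one population minus that in another, on the log2 scale, that passed a test of the difference itself (limma, adjusted over all genes tested). Between Cry2 and wt cells the difference was 3.05 for MEST, 6.46 for PLAGL1, -0.51 for SNRPN, 0.67 for CDKN1C and 1.40 for DLK1. Between mCherry and GFP cells it was 2.84 for MEST, 5.87 for PLAGL1, -0.69 for SNRPN, 1.25 for CDKN1C, 1.55 for DLK1 and -1.18 for PEG10. Between GFP and wt cells it was 1.12 for PEG10. MEG3 is not among them, since it passed the filter on low values only through illuminated engineered cells.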

How the results depend on the processing

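H19 and IGF2 rest on 24 to 236 reads per library and MEG3 on 0 to 27, which limits their precision. Of 1067 log2 changes under alternatives that left out no single library, 1043 kept their direction and side of the threshold, 15 lost the call, 2 gained it and 7 changed sign; with 1 library left out, 878 of 954 kept both. The cause of these changes was not tested. Several alternatives use the same group means as the main fit, so the direction could not change in them. These are the fits without a filter, with a higher minimum, with a replicate block, with only the groups compared and with all libraries together.

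In Cry2 dark against wt dark, the number of the 9 genes called was 0 without a filter, 0 with a replicate block, 0 without wt dark replicate 1 and Cry2 dark replicate 3 together, and 2 with only the groups compared; all genes called were 1230 with DESeq2, 2470 with only the groups compared and 267 without those libraries. In mCherry dark against GFP dark 1 of the 9 was called without a filter and 1 with all 24 libraries, and all genes called were 291 with DESeq2 and 385 with only the groups compared. The dark difference between cultures was called for 0 genes without both doubted libraries. In wt light against dark all genes called were 47 with edgeR, 290 with DESeq2, 4 with only the groups compared and 2 without both libraries, and in GFP light against dark 1469 with DESeq2 and 1356 with only the groups compared. For the light effect in Cry2 minus wt, 3 of the 9 were called without both libraries. For GFP minus wt all genes called were 763 with DESeq2 and 260 without both; for mCherry minus Cry2 they were 8 with edgeR, 24 with DESeq2 and 1 without both.

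None of the values that changed sign was called. These were CDKN1C in wt light (-0.012 without both libraries), DLK1 in GFP light (0.014 with edgeR, 0.0091 with DESeq2), the light effect on H19 in Cry2 minus wt (-0.022 at pseudocount 10, -0.0033 with TMM, -0.025 with edgeR) and that in mCherry minus GFP (-0.023 at pseudocount 10).

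Counts of members here include MEG3 where it passed the filter. Since it did so only through illuminated engineered cells, its calls in comparisons with those cells are no support. With all libraries, counts without MEG3 were 6 in Cry2 light and 7 in mCherry light. They were 5 for Cry2 minus wt and 6 for mCherry minus GFP. Engineered against wild-type cells under light gave 8 in each culture. Leaving out 1 library each, members called ranged from 0 to 0 in Cry2 dark against wt dark (all genes 327 to 411), 0 to 2 in mCherry dark against GFP dark (93 to 106), 0 to 0 for the dark difference (0 to 1), 6 to 7 in Cry2 light (10225 to 10639), 7 to 8 in mCherry light (9708 to 11475), 0 to 0 in wt light (3 to 32), 1 to 1 in GFP light (484 to 781), 3 to 7 for Cry2 minus wt (8317 to 9790), 5 to 7 for mCherry minus GFP (7039 to 8984), 1 to 1 for GFP minus wt (271 to 494), 0 to 0 for mCherry minus Cry2 (0 to 80), 7 to 9 in Cry2 light against wt light (10601 to 11772) and 8 to 9 in mCherry light against GFP light (9336 to 11266). Log2 changes that changed sign ranged, in Cry2 dark against wt dark, from -0.085 to 0.12 for PLAGL1, -0.064 to 0.0085 for SNRPN, -0.062 to 0.48 for DLK1 and -0.20 to 1.42 for MEG3; in mCherry dark from -0.016 to 0.044 for MEST; for the dark difference from -0.17 to 0.057 for CDKN1C, -0.34 to 0.0027 for H19 and -1.13 to 0.49 for MEG3; in wt light from -0.026 to 0.088 for CDKN1C; in GFP light from -0.48 to 0.051 for IGF2, -0.44 to 0.26 for DLK1 and -0.30 to 0.41 for MEG3; for H19 from -0.18 to 0.26 in Cry2 minus wt and -0.12 to 0.23 in mCherry minus GFP; for SNRPN from -0.020 to 0.25 in GFP minus wt; and for PLAGL1 from -0.039 to 0.22 in mCherry minus Cry2.

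Same-numbered monoculture samples correlated between -0.061 and 0.058 in their deviations from group means. Different-numbered ones correlated between -0.057 and 0.080, so this check gave no sign of pairing by number. It cannot exclude a pairing that touches some genes only. With the replicate block H19 in Cry2 dark against wt dark had an adjusted p of 0.058 by limma. In co-culture the columns carry no replicate number, and no paired fit was made there. The mCherry and GFP cells were sorted from mixed cultures, so their libraries may share a culture. The p-values of mCherry against GFP take no account of that.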

Other observations

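Of 7 genes that keep or read imprints, 5 passed in engineered cells under light, beside 58.4% of all genes in Cry2 and 55.9% in mCherry: DNMT1, UHRF1 and ZNF445 were called higher and DPPA3 and ZFP57 lower in both. CTCF (adjusted p = 0.40 in Cry2 and 0.92 in mCherry by limma) and TRIM28 (0.089 and 0.95) did not pass. UHRF1 changed by 1.51 ± 0.08 in Cry2 and 1.40 ± 0.07 in mCherry on the log2 scale (SE; adjusted p = 1.2e-10 and 4.1e-10 by limma), and by 0.46 ± 0.07 in GFP light (adjusted p = 0.0019). Of 13 IGF pathway genes, 12 passed in Cry2 light (4 higher, 8 lower) and 12 in mCherry light (5 higher, 7 lower), beside 58.4% and 55.9% of all genes. The receptor IGF2R, which clears IGF2 from the cell surface, was among those higher in both, and the receptor IGF1R among those lower.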
